A study of Mus musculus with 6 samples.

Results

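The amino acid and peptide transporters described here are the genes of 8 solute carrier families, Slc1a, Slc3a, Slc6a, Slc7a, Slc15a, Slc36a, Slc38a and Slc43a. A gene was a member when its symbol joined 1 of these family names to a number and the array annotation gave its probe set that symbol alone. This left 67 members among the 19938 genes tested. Expression was measured by array in mucosa scraped from the jejunum of C57/BL mice aged 8 to 10 weeks and fed regular chow. The ISR2 group holds 3 arrays from transgenic mice whose SREBP2, the factor that switches on cholesterol synthesis genes, is overactive in the intestine, and the wild type group holds 3 arrays from their littermates. No source used here gives the construct, its promoter or the number of founder lines. Whether every array stands for its own mouse is not labelled, and p-values therefore measure only the spread between arrays, which may be technical. The values are log2 expression values from the RMA method, and array medians over all rows lay between 6.04 and 6.19. Srebf2 itself was higher in ISR2 by 1.78 ± 0.16 (log2 change, SE; limma adjusted p = 0.000298), with the part due to the transgene unknown. The 12 enterocyte markers checked had mean levels of 8.16 to 13.9, and the ileal marker Fabp6 was dim at 4.87. The other ileal marker, Slc10a2, the apical bile acid transporter, was also dim but higher in ISR2, at 5.63 against 4.62 in wild type (mean log2 levels, n = 3 each; log2 change 1.01, limma adjusted p = 0.00461), without overlap, and its part in the results was not tested.

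Dietary protein reaches the enterocyte as small peptides and free amino acids. Peptides cross the brush border with protons, amino acids cross it with sodium or protons or in exchange for other amino acids, and both leave toward the blood as amino acids through basolateral exchangers and facilitated carriers. Several of these carriers work only as a pair, in which a light chain of the Slc7a family transports and a heavy chain of the Slc3a family brings it to the membrane. Other members serve lysosomes, neurons, liver or kidney, and some are switched on by the transcription factor ATF4 when amino acids are scarce.

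ISR2 mucosa carried less mRNA for the peptide transporter Slc15a1 (2.32-fold), the basolateral carrier Slc43a2 (2.05-fold), the serotonin transporter Slc6a4 (1.68-fold) and Slc6a20b (1.80-fold), and more for the glutamine exchanger Slc1a5 (2.42-fold) and the dopamine transporter Slc6a3 (2.00-fold). These 6 members passed an adjusted p of 0.05 in limma (Benjamini-Hochberg over all genes), 2 of them higher and 4 lower. They make 8.96% of the 67, beside 3.02% of all genes, of which 1.79% were higher and 1.23% lower. All 6 lay above 5.55, the 95th percentile of the mean levels of 1194 olfactory and vomeronasal receptor genes, which serve as a rough guide to background, and so did 44 of the 67 members. Among genes above that level, 4.28% passed. The calls of Slc15a1, Slc43a2 and Slc1a5 held without any one array. Those of Slc6a4, Slc6a20b and Slc6a3 were lost when some single arrays were left out.

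The log2 change was negative in 51 members and positive in 16, with a median of -0.09, beside a median of -0.06 and 62.6% negative changes over all genes. The ISR2 and wild type arrays did not overlap in 18 members, 5 of them higher and 13 lower in ISR2. That is 26.9% of the members, beside 19.8% of all genes (1171 higher and 2772 lower). By family, Slc6a had 20 members with 1 rise and 2 falls, Slc1a 7 with 1 rise, Slc15a 5 with 1 fall and Slc43a 3 with 1 fall. The 15 members of Slc7a, 11 of Slc38a, 4 of Slc36a and 2 of Slc3a held 0 that passed limma's adjusted p, although 2 members of Slc7a, 2 of Slc38a, 1 of Slc36a and 1 of Slc3a had an unadjusted p under 0.05.

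**Figure D1:**
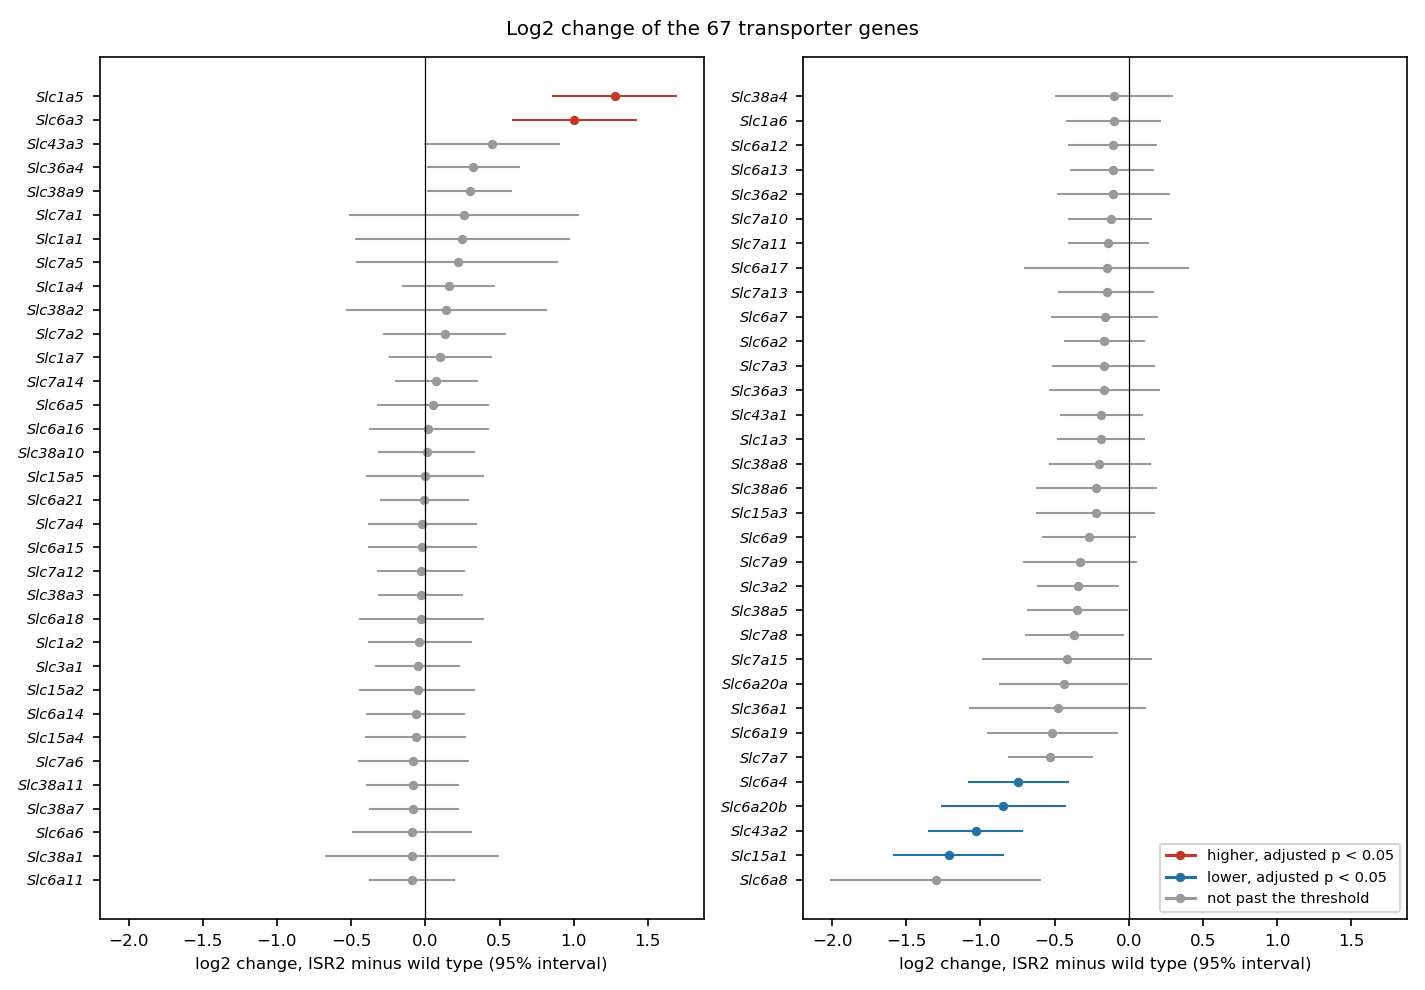
Log2 change (ISR2 minus wild type) of each of the 67 members, with points for the estimate and lines for the 95% interval of the limma fit, sorted from the largest rise to the largest fall over both panels. Slc1a5 at 1.28 and Slc6a3 at 1.00 are the coloured points on the right, and Slc15a1, Slc43a2, Slc6a20b and Slc6a4 those on the left; Slc6a8 has the lowest estimate, -1.30, and the widest interval among the negative changes.

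Promoter sequences are shown for members that the following results turn on: the 2 falls that passed without any one array, the rise of Slc6a3, and Slc7a7, whose window held the amino acid response motif. They come from RefSeq (GRCm38.p6) and run 5′ to 3′ on the gene's strand, from 250 bases before to 50 bases after the annotated start, with motif matches in capitals. Of the 67 members, 49 had an entry in that table. Slc1a5 was among those without one, so its promoter was not searched for motifs.
Slc15a1: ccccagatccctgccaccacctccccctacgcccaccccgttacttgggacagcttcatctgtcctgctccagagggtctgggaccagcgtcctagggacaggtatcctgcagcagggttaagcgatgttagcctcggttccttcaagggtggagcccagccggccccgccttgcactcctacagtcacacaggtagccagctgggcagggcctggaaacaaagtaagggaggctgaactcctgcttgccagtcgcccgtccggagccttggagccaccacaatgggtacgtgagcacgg
Slc43a2: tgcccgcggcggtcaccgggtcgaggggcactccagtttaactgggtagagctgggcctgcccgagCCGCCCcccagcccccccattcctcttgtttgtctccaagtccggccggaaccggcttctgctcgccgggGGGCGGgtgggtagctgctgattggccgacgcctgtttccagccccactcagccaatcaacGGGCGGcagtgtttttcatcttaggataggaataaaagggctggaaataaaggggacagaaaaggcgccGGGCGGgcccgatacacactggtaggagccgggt
Slc6a3: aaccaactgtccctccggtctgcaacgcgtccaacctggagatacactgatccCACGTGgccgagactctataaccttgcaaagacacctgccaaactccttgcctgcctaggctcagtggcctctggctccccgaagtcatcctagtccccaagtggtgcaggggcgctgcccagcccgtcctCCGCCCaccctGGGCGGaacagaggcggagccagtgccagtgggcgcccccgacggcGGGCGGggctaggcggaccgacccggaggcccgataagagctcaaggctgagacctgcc
Slc7a7: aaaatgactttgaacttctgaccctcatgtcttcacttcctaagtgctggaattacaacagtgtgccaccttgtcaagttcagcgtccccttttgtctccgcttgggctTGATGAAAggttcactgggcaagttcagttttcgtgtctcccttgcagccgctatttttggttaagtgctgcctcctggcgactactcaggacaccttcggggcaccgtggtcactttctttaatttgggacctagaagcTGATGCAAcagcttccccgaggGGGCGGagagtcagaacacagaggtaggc
The window of Slc15a1 is chr14:121505205-121505504 on the minus strand, that of Slc43a2 chr11:75531444-75531743 on the plus strand, that of Slc6a3 chr13:73536497-73536796 on the plus strand and that of Slc7a7 chr14:54417895-54418194 on the minus strand. Slc43a2 and Slc7a7 have further annotated starts, whose windows are not printed.

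The motifs were searched as letters on both strands. Shares of all genes refer here to the 27025 genes with a promoter entry, a set not limited to the genes tested. The sterol regulatory element to which SREBP proteins bind, searched as TCACNCCAC, was found in 0 of the 49 member promoters and in 1.44% of all genes with a promoter in the table. CACGTG, the E-box that SREBP proteins can also bind, was found in 9 member promoters (18.4%) and in 8.09% of all genes. Slc6a3 held 1 E-box, whose first base lies at -197 from the start, and was the only one of the 9 to pass limma's adjusted p. The others were Slc1a6, Slc1a7, Slc36a1, Slc38a5, Slc38a7, Slc43a1, Slc6a16 and Slc7a14, with log2 changes of -0.48 to 0.1. Of these, Slc38a5, lower in ISR2, had an unadjusted p under 0.05. The part of the E-box in any change was not tested. GGGCGG, the GC box bound by Sp1, was in 31 member promoters (63.3%) and in 38.2% of all genes, with 4 copies in the printed window of Slc43a2 and 3 in that of Slc6a3. TGATGNAA, the element bound by ATF4 with C/EBP partners, was in 5 member promoters (10.2%) and in 4.51% of all genes; these were Slc15a5, Slc1a4, Slc6a21, Slc7a11 and Slc7a7, with 2 copies in the printed window of Slc7a7. The printed window of Slc15a1 held 0 matches. The matches in the printed windows do not overlap one another. Of the 5 members with the ATF4 element, 0 passed limma's adjusted p, and 1, Slc7a7, had an unadjusted p under 0.05.

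At the brush border, the peptide transporter and the serotonin transporter fell, the glutamine exchanger Slc1a5 rose, and the other 8 members of the apical list did not pass. Of 11 apical members, 1 rose and 2 fell. The log2 change was negative in 9 of the 11, and its median was -0.33, beside -0.06 over all genes. Slc15a1, which takes up di- and tripeptides with protons, read 10.87, 11.16 and 10.88 in the ISR2 arrays and 12.31, 12.35 and 11.89 in the wild type arrays (log2 levels). Every ISR2 array lay below every wild type array. This gave a log2 change of -1.21 ± 0.16 (SE; limma adjusted p = 0.00348), which passed without any one of the 6 arrays, with adjusted p up to 0.0287.

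Slc1a5, which exchanges glutamine for other neutral amino acids, read 9.71, 9.48 and 9.71 in ISR2, against 7.98, 8.42 and 8.67 in wild type. All ISR2 arrays lay above the wild type arrays, and the wild type arrays were spread more widely (SD 0.13 in ISR2 and 0.35 in wild type, n = 3 each). Slc1a5 changed by 1.28 ± 0.18 on the log2 scale (SE; limma adjusted p = 0.00513), and its call also held without any one array, with adjusted p up to 0.0383.

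Slc6a4 clears serotonin from the mucosa into enterocytes. It read 8.48, 8.34 and 8.79 in ISR2 and 9.29, 9.16 and 9.39 in wild type, without overlap, a log2 change of -0.75 ± 0.15 (SE; limma adjusted p = 0.031). The call was lost without any one array other than ISR2 array 3 (adjusted p 0.066 to 0.147), and with each array centred on its median (0.0706). Tph1, which makes serotonin in enterochromaffin cells, differed by 0.01 ± 0.16 (SE; adjusted p = 0.993), and 0 of 7 enteroendocrine markers passed limma's adjusted p (1 had an unadjusted p under 0.05).

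The sodium-coupled carriers of neutral and imino acids differed by less. Slc6a19, the main neutral amino acid carrier of the brush border, read 11.02, 11.61 and 10.93 in ISR2, against 11.86, 11.73 and 11.52 in wild type. Its ISR2 array 2 lay within the wild type range, the other two below it. Between groups it differed by -0.52 ± 0.19 (SE; limma adjusted p = 0.273), with a 95% interval of -0.95 to -0.08. Without ISR2 array 2 it was -0.73 (adjusted p = 0.0375). Slc6a20a, the proline and imino acid carrier, differed by -0.44 ± 0.19 (SE; adjusted p = 0.365), with overlapping arrays.

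Slc6a20b, the mouse paralogue of Slc6a20a on the same chromosome, read 5.89, 5.88 and 6.05 in ISR2 and 7.20, 6.57 and 6.59 in wild type. The ISR2 arrays were close together and wild type array 1 stood above the other two. The log2 change was -0.85 ± 0.18 (SE; limma adjusted p = 0.0431). The call was lost when any one array was left out (adjusted p 0.0543 to 0.181), when each array was centred on its median (0.0639) and after quantile normalization (0.0624). How far probes of such close paralogues cross-hybridise was not tested.

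Slc36a1, which carries small neutral amino acids with protons at the brush border and in lysosomes, differed by -0.48 ± 0.26 (SE; limma adjusted p = 0.504). Its wild type array 3, at 10.18, lay within the ISR2 range of 10.12 to 10.53. The cystine and basic amino acid exchanger Slc7a9 differed by -0.33 ± 0.17 (SE; adjusted p = 0.46), while its heavy chain Slc3a1 differed by -0.05 (95% interval -0.33 to 0.23). The taurine carrier Slc6a6 differed by -0.09 (95% interval -0.49 to 0.31). Slc6a14, a broad-range carrier known mainly from colon and airway, was dim, at 3.97 to 4.36 in ISR2 and 4.10 to 4.32 in wild type.

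**Figure D2:**
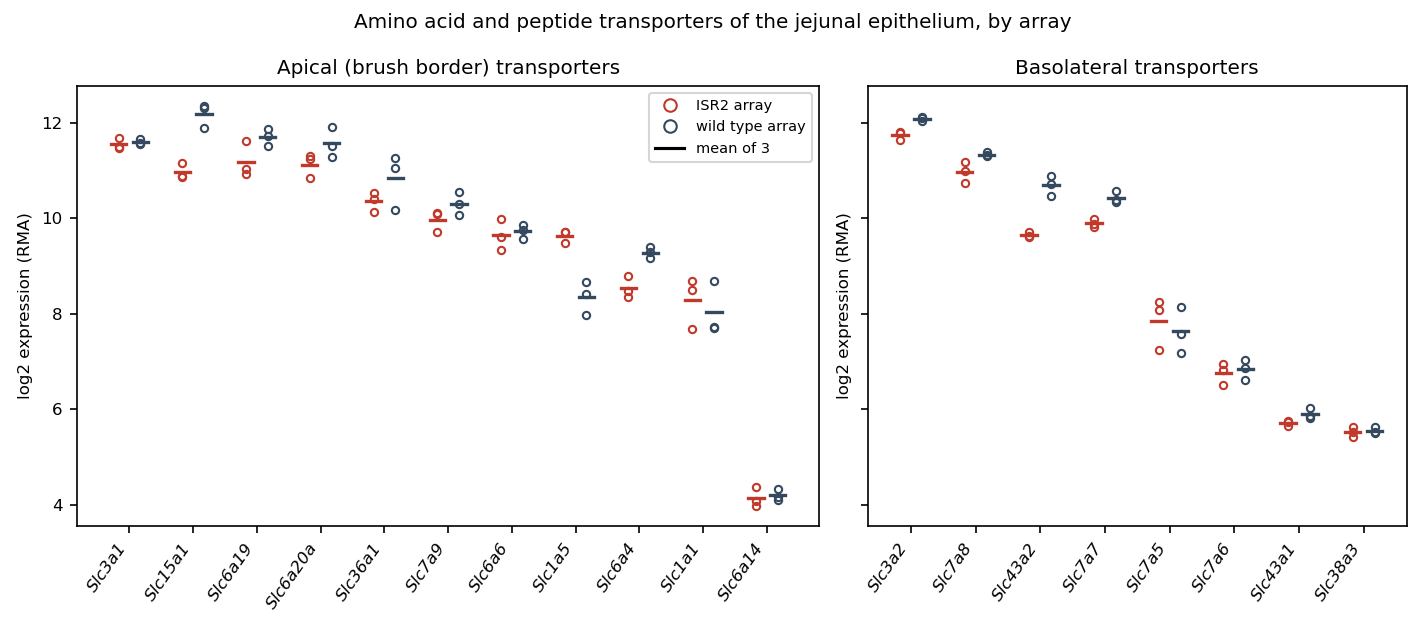
Log2 expression (RMA) of the 11 apical members (left panel) and the 8 basolateral members (right panel), with an open circle for each array, ISR2 left of wild type, and a bar for the mean of 3. Slc15a1, Slc6a4 and Slc43a2 have every ISR2 circle below the wild type circles and Slc1a5 has them above; levels of different genes come from different probes and cannot be set against one another.

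On the basolateral side, Slc43a2 fell and the other members did not pass. Of 8 members, 0 rose and 1 fell, and the log2 change was negative in 7, with a median of -0.27 beside -0.06 over all genes. The arrays did not overlap in 5 of the 8 (62.5%), each lower in ISR2. Of the 19938 genes tested, 2772 were lower without overlap, and 19.8% did not overlap in either direction. Slc43a2 lets branched-chain amino acids, methionine and phenylalanine leave the cell. It read 9.63, 9.72 and 9.61 in ISR2, against 10.88, 10.72 and 10.46 in wild type. The ISR2 arrays spanned a narrow range (SD 0.06 in ISR2 and 0.21 in wild type, n = 3 each), far from the wild type arrays. Its change of -1.03 ± 0.14 (log2, SE; limma adjusted p = 0.00381) passed without any one array, with adjusted p up to 0.0291.

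Slc7a7, the light chain that exports basic amino acids, read 9.82, 9.99 and 9.88 in ISR2 and 10.56, 10.33 and 10.38 in wild type. The groups did not overlap, but the log2 difference of -0.53 ± 0.13 (SE) missed the threshold (limma adjusted p = 0.066). It passed with genes below the receptor level left out of the test (adjusted p = 0.0499). Slc7a8, the light chain for neutral amino acids, differed by -0.37 ± 0.14 (SE; adjusted p = 0.307), again with no overlap. Slc3a2, the heavy chain that both light chains need, read 11.80, 11.64 and 11.79 in ISR2, against 12.12, 12.10 and 12.04 in wild type. Its log2 difference was -0.34 ± 0.12 (SE; adjusted p = 0.236), so the heavy chain and both light chains were lower in every ISR2 array while none of the 3 passed. Slc43a1, a relative of Slc43a2, also did not overlap (-0.19, adjusted p = 0.596). Slc7a6 and the glutamine carrier Slc38a3 overlapped, at 6.50 to 6.94 in ISR2 against 6.62 to 7.03 in wild type for Slc7a6 and at 5.41 to 5.62 in ISR2 against 5.50 to 5.63 in wild type for Slc38a3.

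The apical and basolateral members together counted 1 rise and 3 falls among 19. That is 21.1%, beside 3.02% of all genes and 4.28% of genes above the receptor level. Changes were negative in 16 (84.2%, beside 62.6% of all genes). The lists were chosen with earlier results of these data known, so these shares are description only. Averaged over the list, the 11 apical members lay at 9.55 to 9.60 in ISR2 and 9.75 to 9.85 in wild type, and the 8 basolateral members at 8.39 to 8.60 in ISR2 and 8.75 to 8.86 in wild type. Beside this, the mean of 12 enterocyte markers was 11.93 to 12.06 in ISR2 and 12.20 to 12.27 in wild type. Of those 12 markers, 1 fell (Treh, the trehalase), 9 had negative changes and the median was -0.24. Lower in ISR2 without overlap were 7 (58.3%), beside 2772 of the 19938 genes tested. Of 10 markers of T cells and intraepithelial lymphocytes, 5 fell and 0 rose, beside 1.23% of all genes called lower and 1.79% called higher. The means of this list were 6.55 to 7.10 in ISR2 and 7.46 to 7.90 in wild type. Fewer cells of a type and less RNA per cell cannot be told apart in scraped mucosa, and the part of these markers in the transporter differences was not tested.

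Slc6a8, the creatine transporter, had the largest difference of any member by size without passing. It read 10.10, 10.32 and 9.30 in ISR2, against 11.46, 11.58 and 10.59 in wild type. Array 3 was the lowest of its group in both groups, and every ISR2 array lay below every wild type array. The log2 difference was -1.30 ± 0.31 (SE; limma adjusted p = 0.0693), with a 95% interval of -2.01 to -0.60. Slc6a8 passed limma's adjusted p without ISR2 array 2 (0.0492), without wild type array 3 (0.0186) and with array weights (0.0171). Those weights were 4.059 for ISR2 array 1 and 0.402 and 0.669 for ISR2 arrays 2 and 3, so array 1 dominates the weighted ISR2 mean. Slc7a15, an aromatic-preferring carrier outside the rule for named genes, also had its lowest value in array 3 of each group, at 8.87 in ISR2 and 9.19 in wild type (log2 difference -0.42 ± 0.25, SE; adjusted p = 0.559).

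Among the 9 members known to respond to amino acid scarcity, 1 rose, Slc1a5, 0 fell, and the median change was 0.14. Slc7a1, which takes up basic amino acids, Slc7a5, the light chain for large neutral amino acids, and Slc38a2, a sodium-coupled carrier of small neutral amino acids, varied more within the groups than between them. Slc7a1 read 8.53, 7.52 and 8.86 in ISR2 and 7.66, 7.91 and 8.55 in wild type. Slc7a5 read 8.24, 7.23 and 8.07 in ISR2, against 7.17, 7.58 and 8.13 in wild type. Slc38a2 read 9.78, 9.18 and 9.92 in ISR2 and 8.88, 9.51 and 10.07 in wild type. In each of the 3 genes ISR2 array 2 was the lowest ISR2 array and wild type arrays 1 and 3 were the lowest and the highest of theirs. The log2 differences were 0.26 for Slc7a1 (95% interval -0.51 to 1.03), 0.22 for Slc7a5 (-0.46 to 0.89) and 0.14 for Slc38a2 (-0.53 to 0.81). Their sign changed when some single arrays were left out.

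Slc1a1, the glutamate and aspartate carrier, read 8.49, 7.68 and 8.68 in ISR2 and 7.72, 7.69 and 8.68 in wild type. It too was lowest in ISR2 array 2 and highest in wild type array 3, and its log2 difference was 0.25 (95% interval -0.47 to 0.97). Beside these genes, the mean of 5 markers of stem and cycling cells was 8.06, 7.05 and 8.29 in ISR2 and 7.49, 7.82 and 8.47 in wild type, again lowest in ISR2 array 2 and highest in wild type array 3. The smooth muscle and stroma markers averaged 8.10, 9.23 and 8.12 in ISR2, against 7.52, 9.83 and 7.97 in wild type. Their part in the spread of the transporters was not tested.

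**Figure D3:**
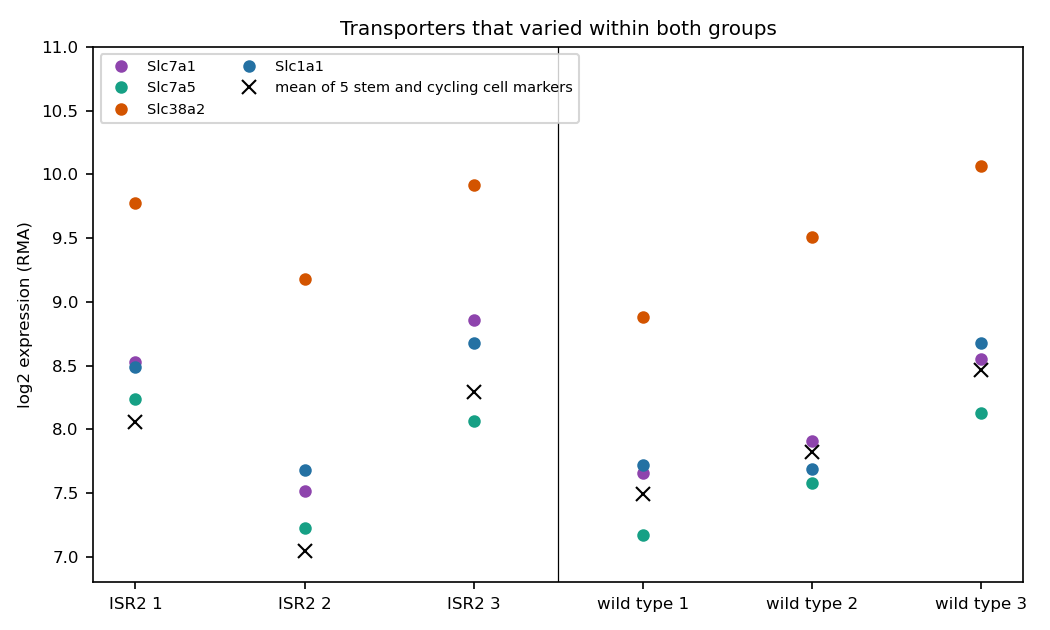
Log2 expression (RMA) of Slc7a1, Slc7a5, Slc38a2 and Slc1a1 in each array, ISR2 on the left and wild type on the right, with crosses for the mean of 5 stem and cycling cell markers. All 4 genes and the crosses are lowest in ISR2 array 2 among ISR2 arrays and highest in wild type array 3 among wild type arrays, and the ranges of both groups overlap.

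Other response members did not pass either. The neutral amino acid exchanger Slc1a4 differed by 0.16 (95% interval -0.15 to 0.46) and the glycine carrier Slc6a9 by -0.27 (-0.58 to 0.04). The cystine and glutamate exchanger Slc7a11, an established ATF4 target, was dim at 4.28 to 4.31 in ISR2 and 4.36 to 4.48 in wild type.

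Of 5 lysosomal members, 0 passed limma's adjusted p, and 1 had an unadjusted p under 0.05. That member was Slc38a9, which senses lysosomal arginine for mTORC1, at 7.50, 7.69 and 7.66 in ISR2 and 7.31, 7.40 and 7.22 in wild type. The groups did not overlap, and the log2 difference was 0.30 ± 0.12 (SE; limma adjusted p = 0.331). A second, dimmer probe set of Slc38a9 differed by -0.15, so its probe sets disagree in sign. The histidine and peptide carriers Slc15a3 and Slc15a4 differed by -0.22 (95% interval -0.62 to 0.17) and -0.06 (-0.40 to 0.27). Outside the lysosomal list, Slc36a4, a high-affinity proline and tryptophan carrier, differed by 0.32 ± 0.13 (SE; adjusted p = 0.341) and Slc43a3, a purine nucleobase carrier, by 0.45 ± 0.20 (SE; adjusted p = 0.378). Neither overlapped between groups, Slc43a3 only narrowly, and both were higher in ISR2. Slc38a5, a glutamine and glycine carrier, did not overlap either and was lower in ISR2 (-0.35 ± 0.15, SE; adjusted p = 0.365).

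Of 7 neuronal or glial members, 1 passed, Slc6a3, which takes dopamine back into neurons. It read 7.56, 8.10 and 7.62 in ISR2, against 7.02, 6.67 and 6.58 in wild type. All ISR2 arrays lay above the wild type arrays, ISR2 array 2 furthest. The log2 change was 1.00 ± 0.18 (SE; limma adjusted p = 0.0195), and the call was lost without wild type array 2 (0.0814) or wild type array 3 (0.068). The other 6 of this list lay at mean levels of 4.86 to 6.57, and 0 of them passed limma's adjusted p or had an unadjusted p under 0.05. Of 7 enteric neuron and glia markers read at 4.46 to 6.37, 0 passed limma's adjusted p and 1 had an unadjusted p under 0.05. Th, which makes the dopamine precursor, Ddc, which makes dopamine and serotonin, and Slc18a2, which loads dopamine into vesicles, were chosen after the values of Slc6a3 were seen. Th differed by -0.44 ± 0.19 (SE; adjusted p = 0.374) and Slc18a2 by 0.06 ± 0.18 (SE; adjusted p = 0.936), at mean levels of 5.60 and 5.47. Ddc differed by 0.64 ± 0.17 (SE; adjusted p = 0.111), with every ISR2 array above every wild type array.

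The 7 members known mainly from liver and kidney lay at mean levels of 3.27 to 5.83 with changes between -0.15 and 0.13, and 0 passed limma's adjusted p or had an unadjusted p under 0.05. In all, 23 members lay at or below the receptor level, with changes between -0.17 and 0.13. Changes of such dim probe sets can be compressed by background signal. Slc38a1, a sodium-coupled glutamine carrier, has a pair of probe sets that differed by -0.09 and 0.08.

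The steps that feed and follow transport were described through 5 lists of other genes, to be read beside the shares over all genes, of which 1.79% were called higher, 1.23% were called lower and 62.6% had negative changes. Among 13 measured transporter partners and enzymes of peptide digestion, 0 rose and 3 fell, with a median of -0.35 and 11 negative changes. Lap3, a cytosolic leucine aminopeptidase that splits peptides inside the cell, read 9.72, 9.72 and 9.93 in ISR2 and 10.89, 10.93 and 10.73 in wild type. Its groups were far apart (log2 change -1.06 ± 0.13, SE; limma adjusted p = 0.00208), and the call held without any one array. Tmprss15, the enteropeptidase that activates trypsinogen, read 5.05, 6.05 and 4.63 in ISR2, against 8.27, 7.39 and 6.92 in wild type. All ISR2 arrays were lower and both groups were widely spread (-2.28 ± 0.40, SE; adjusted p = 0.0157), and the call was lost without ISR2 array 1 or wild type array 1 (up to 0.0904). Mep1a, a subunit of the brush border protease meprin, had a log2 change of -0.61 ± 0.13 (SE; adjusted p = 0.0462), a call lost when any one array was left out (up to 0.202). The brush border peptidases Anpep, Dpep1 and Enpep differed by -0.18, 0.08 and 0.02, with adjusted p of 0.575, 0.852 and 0.977. Dpp4, Ace and Mme had non-overlapping lower values in ISR2, at -0.47, -0.49 and -0.55, and did not pass (adjusted p 0.191, 0.167 and 0.203).

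The list of the amino acid response and ATF4 targets held 2 rises and 1 fall among 18 measured genes, with a median of 0.01. Atf4 read 9.25, 8.86 and 9.03 in ISR2 and 8.05, 7.92 and 8.14 in wild type. It rose 2.02-fold (log2 change 1.01 ± 0.14, SE; limma adjusted p = 0.00441) and passed without any one array. Ddit4, an inhibitor of mTORC1, rose by 0.68 ± 0.13 (SE; adjusted p = 0.0202) and Ddit3, a stress transcription factor, fell, with a log2 change of -0.85 ± 0.15 (SE; adjusted p = 0.0156). With 1 array left out, Ddit4 passed only without ISR2 array 2 (adjusted p up to 0.102), and Ddit3 only without ISR2 array 2 or wild type array 3 (up to 0.0676). Asparagine synthetase, Asns, differed by 0.60 ± 0.23 (SE; adjusted p = 0.309) and Trib3 by -0.07 (adjusted p = 0.92).

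Among 15 genes of amino acid sensing to mTORC1, Slc38a9 included, 1 rose and 0 fell, with a median of 0.03. Lamtor1, which anchors the sensing complex to lysosomes, rose by 0.86 ± 0.17 (SE; limma adjusted p = 0.0333), a call that held, with 1 array left out, only without ISR2 array 3 (up to 0.138). Of 8 amino acid carriers from other families, 0 passed limma's adjusted p and 2 had an unadjusted p under 0.05, with a median of -0.20. The closest was Slc25a15, the mitochondrial ornithine carrier, at -0.59 ± 0.14 (SE; adjusted p = 0.0608). Of 11 genes of amino acid use in enterocytes, 0 passed limma's adjusted p and 4 had an unadjusted p under 0.05, 2 in each direction, with a median of 0.08. Asl, the argininosuccinate lyase of arginine synthesis, differed by 0.61 ± 0.14 (SE, limma adjusted p = 0.0658). Odc1, the first enzyme of polyamine synthesis, differed by -0.67 ± 0.17 (SE, adjusted p = 0.0821). Lamtor1 and Odc1 have 2 probe sets each, and only the brighter of each was read here.

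**Figure D4:**
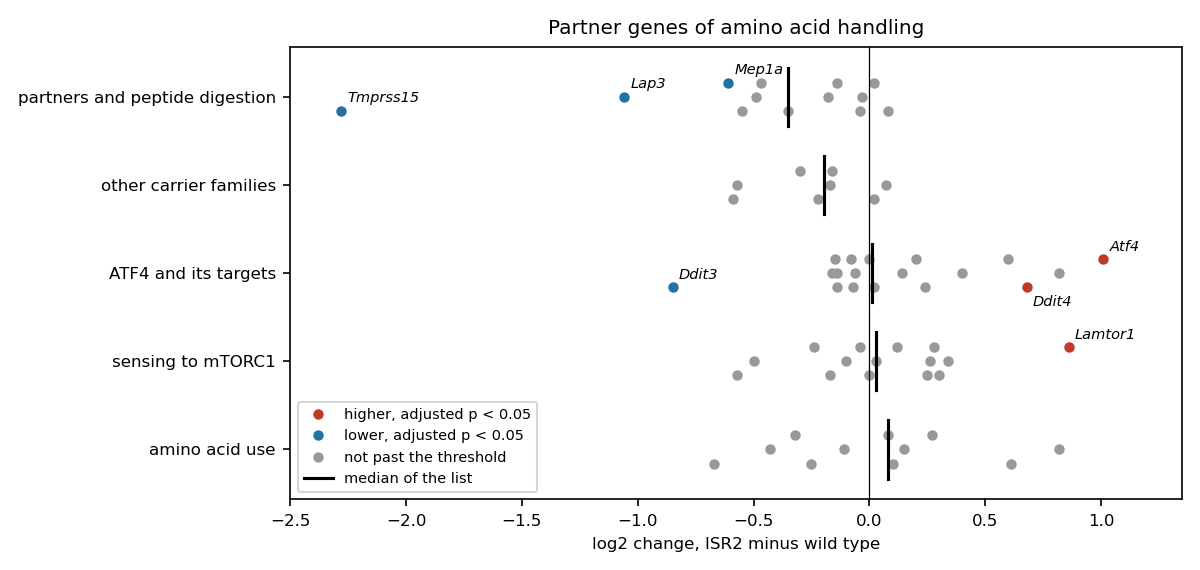
Log2 change (ISR2 minus wild type) of each measured gene in the 5 lists of partner genes, 1 point a gene, with a bar for the median of the list. Tmprss15, Lap3 and Mep1a are the falls of the first list, and Atf4, Ddit4 and Lamtor1 the rises; the medians lie at -0.35, -0.20, 0.01, 0.03 and 0.08 from top to bottom.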

How the data were processed

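Biotin-labelled RNA of jejunal mucosal scrapings was hybridised to 6 arrays after Affymetrix WT labelling, per the labels' protocols. The deposited table holds log2 values from RMA, made by the authors per the submitters' processing notes; values between 1.44 and 14.8 set the scale. RMA makes the distributions of the arrays alike, so a change shared by most genes is largely removed. Small offsets remained in the deposited values, with array medians of 6.04 to 6.19. No source used here gives its version or filters.

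Groups came from the sample titles. Of 35556 rows, 21789 had 1 gene symbol, and the brightest probe set of each gene was tested (19938 genes). The model was ISR2 minus wild type in limma 3.58.1 (lmFit, eBayes; R 4.3.3), two-sided, with Benjamini-Hochberg adjustment over all genes and a threshold of 0.05. The number of arrays limits the precision. Members and lists were chosen with earlier results of these data known. Named members are those past the threshold, those on the role lists, the extremes of each family and the 5 with the largest SD within a group; partner genes are those past the threshold. Slc7a15, Slc38a1, Srebf2, Fabp6, Slc10a2, Tph1, Th, Ddc, Slc18a2, Anpep, Dpep1, Enpep, Dpp4, Ace, Mme, Asns, Trib3, Slc25a15, Asl and Odc1 were named outside that rule, after their values were seen.

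The steps were tested on simulated data of 19938 genes, with 50 genes changed at each size. Of log2 changes of 0.5, 2% were recovered, and of changes of 1, 58%. These shares belong to the simulated setting. A change that did not pass is therefore not shown to be absent. Alternatives were a trend or robust option in eBayes, array weights, median centring, quantile normalization, filters on dim genes, the mean of probe sets, all rows, a replicate block, other thresholds and leaving out single arrays. Leaving out ISR2 array 2 and wild type array 3 together, and all alternatives for the partner lists, were added after seeing the data. Genes named for the opposite strand of 2 members were not counted as members. Figures were made with matplotlib 3.10.9 (Python 3.11.15).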

Additional observations from a re-analysis of the deposited data

How the results depend on the processing

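Of the 6 calls, those of Slc15a1, Slc43a2 and Slc1a5 passed in all settings run. One setting left out ISR2 array 2 and wild type array 3 together. For these genes it removes the array of each group nearest the other group, so passing there adds no support. The calls of Slc6a3, Slc6a4 and Slc6a20b were lost in some settings. Among them were all rows tested (limma adjusted p = 0.078, 0.0883 and 0.119 in this order) and leaving out ISR2 array 2 and wild type array 3 together (0.0537, 0.1 and 0.0622). Beside 6 members called (2 higher, 4 lower), array weights gave 10 with 7 lower, all rows tested gave 3 with 1 higher and 2 lower, median centring gave 2 lower and an unadjusted p of 0.05 gave 16 (5 higher, 11 lower). Without 1 array at a time the count was 3 to 6, with 1 to 2 higher and 2 to 4 lower. Over all genes it was 1268 with array weights, 2618 at the unadjusted p and 335 to 589 without 1 array. All results with array weights rest mostly on ISR2 array 1 for the ISR2 group (weight 4.059, beside 0.402 and 0.669 for arrays 2 and 3). Beside 7 partner genes called, array weights gave 17, all rows 2, the unadjusted p 20, leaving out ISR2 array 2 and wild type array 3 together 11, and leaving out 1 array 2 to 6.

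The median of the members, -0.09, became -0.05 with median centring, -0.13 over the 44 above the receptor level, -0.16 over the 35 with a mean of at least 6 and -0.13 without both arrays. Without both arrays 9 members were called (3 higher, 6 lower); this removes the lowest ISR2 and the highest wild type array of Slc1a1 and Slc7a1, and the lowest wild type array of Slc36a1 (-0.84), Slc7a15 (-0.88), Slc6a19 (-0.82) and Slc6a8 (-1.82), with the highest ISR2 array of the last 3. These 6 calls follow in part from the choice of arrays and support nothing. In that setting Slc15a3 changed sign to 0.03, Slc15a4 to 0.05, Slc38a1 to 0.29 and Slc6a6 to 0.13. Without 1 array at a time, the changes that crossed 0 among the 33 members whose changes are given in the text were those of Slc15a4 (-0.20 to 0.05), Slc38a1 (-0.32 to 0.11), Slc38a2 (-0.17 to 0.43), Slc6a6 (-0.26 to 0.06), Slc7a1 (-0.01 to 0.66) and Slc7a5 (-0.01 to 0.52). The cause was not tested for any of these. Of 555 values of the 33 members under alternatives, 505 kept direction and side of the threshold. Only 6 of the 33 were called in the main fit, so most kept values are those of members that stayed uncalled. Of the rest, 22 lost a call, 16 gained one and 12 changed sign. All 22 lost calls were those of Slc6a3, Slc6a4 and Slc6a20b. Same-numbered arrays correlated by -0.016, 0.323 and 0.54 in their deviations from the group means. Arrays 2 and 3 of each group correlated best with the same number in the other group. ISR2 array 1 instead correlated best with wild type array 3 (0.134). These values do not decide whether the numbers pair the arrays. The replicate block called 7 members, with Slc6a8 added (adjusted p = 0.000627). The 3 arrays a group limit the precision of all values.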
